A study of Mus musculus with 16 samples.

Results

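The comparison here set B16F10-TDMa melanoma cells grown as tumours against the same line grown in culture, both carrying a scramble guide RNA (sgScramble). It used 6 of the 16 RNA-seq libraries of the study: 4 tumours and 2 cultures. B16F10 is a mouse melanoma line of the C57BL/6 background. The labels name the derived line TDMa without saying what the letters stand for, and the series title speaks of targeted demethylation and activation of Nlrc5. The first group consisted of libraries labelled tumor, from B16F10-TDMa cells transduced with the scramble guide. The second consisted of the same transduced line kept in DMEM with 10% fetal bovine serum at 37C and 5% CO2. No Nlrc5-targeting guide was present in either group. Host strain, sex, age, immune state, site of growth and days of growth were not given in the labels. Nothing in the labels says that replicates came from separate animals or cultures, so p-values here speak only of the variation among the libraries, which may be technical. The genes were taken from the tables of normalised values, joined by identifier and rescaled together, so that a level below is a rescaled count: a read count brought to a common library scale, not divided by gene length. Of the genes listed, 12874 stood in both tables and 12218 were tested. A further 2059 were listed in the tumour table only and are described apart.

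A melanoma cell moved into an animal meets low oxygen, other nutrients, contact with stroma and the cytokines of immune cells. Low oxygen stabilises the HIF transcription factors, which turn on glucose uptake, glycolysis and vessel-forming signals. Low sterol releases SREBP2, which turns on cholesterol synthesis. Interferons made by lymphocytes and other cells act through STAT and IRF factors on antigen presentation genes, and NLRC5 is a transactivator of MHC class I genes. The melanocyte programme is driven by MITF and SOX10 and covers the enzymes and transporters of pigment granules.

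The tumour libraries held 12663647, 14854839, 14519995 and 16390886 recovered reads over the listed genes, and the culture libraries 13857653 and 13962309. The 10 most abundant genes took 9.34% to 11.4% of the reads in tumours and 5.79% to 5.81% in cultures. Correlations of log2 values were 0.983 to 0.989 among tumours, 0.992 between the cultures and 0.913 to 0.928 between the groups, and the median SD of log2 values was 0.137 in tumours and 0.0531 in cultures. Tumour 1 stood apart in its sex-linked RNAs: Xist, the RNA of the inactive X chromosome, was at 3.41, 149, 193 and 237 in tumours 1 to 4. The Y-linked Eif2s3y was at 21.6, 0, 0.997 and 0, and Uty at 11.4, 0, 0 and 1.78. Tumour 1 also held most Fbln5, at 755, 53.8, 75.8 and 176 in the tumours against 499 and 485 in the cultures, and most Rhox5, an X-linked homeobox gene, at 2367, 355, 393 and 965 against 2107 and 2146. Those values of tumour 1 lie above both cultures, and those of the other tumours lie below them. Tumours and cultures came from separate tables that had each been normalised alone, and tumours contain host cells, so growth site, table and host RNA cannot be told apart in any difference below. In bulk RNA, fewer cells of a type and less RNA per cell cannot be told apart either.

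Of 12218 genes tested, 3319 (27.2%) were higher in tumours and 3136 (25.7%) were lower (limma with an intensity trend on log2 of the rescaled count plus 1, two-sided, Benjamini-Hochberg adjusted p under 0.05). Large differences leaned upward. More than 2-fold differences numbered 1147 higher and 635 lower, more than 4-fold 352 higher and 180 lower, and more than 16-fold 65 higher and 20 lower. The groups did not overlap for 8138 genes (66.6%). Scaling the libraries to equal sums in place of the median of ratios moved the median of all genes by -0.15 on the log2 scale and gave 2554 higher and 4418 lower, so small differences depend on the scaling. The called-lower count was 1994 without culture 1 and 2001 without culture 2, where the single culture left was assumed to vary like the tumours. Without tumour 1, the library with the different sex-linked RNAs, 6938 genes were called in place of 6455.

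Genes of the low-oxygen response were higher in tumours. Car9, Vegfa, Ero1a and Bnip3 were all several-fold to many-fold higher in every tumour, and 19 of the 22 tested hypoxia genes were higher and 1 was lower, beside 27.2% and 25.7% of all genes. Their median change was 1.73 (log2), against -0.01 for all genes tested. Car9 (ENSMUSG00000028463), the carbonic anhydrase that exports acid from hypoxic cells, was at 5413, 6175, 6920 and 7420 in tumours against 114 and 71.6 in cultures. The 4 tumours were close to each other and far above both cultures, a change of 6.14 ± 0.16 (log2, SE; limma adjusted p = 3.3e-10), or 70.3-fold (folds are 2 to the power of the change). Adm, which encodes the vessel-dilating peptide adrenomedullin, was at 717, 426, 617 and 536 in tumours against 0.937 and 2.79 in cultures, a change of 7.70 ± 0.28 (limma adjusted p = 2.03e-09) that rests on only a few culture reads. Vegfa (ENSMUSG00000023951), the main vessel growth factor, was at 1785, 2607, 2830 and 3041 in tumours against 225 and 193 in cultures, a change of 3.59 ± 0.17 (limma adjusted p = 1.68e-08). Ero1a, an oxidase of the endoplasmic reticulum, was at 16593, 15734, 17523 and 19901 in tumours against 1705 and 1748 in cultures, 10.1-fold higher. Bnip3, a mitophagy receptor, was at 2289, 2261, 2130 and 2910 in tumours against 291 and 276 in cultures. All of these separate the groups without overlap, as did 66.6% of all genes tested.

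The regulators of the pathway did not all move one way. Hif1a itself was at 6794, 7248, 7084 and 7932 in tumours against 2182 and 2195 in cultures (1.73 ± 0.08), and Egln1, the oxygen sensor that marks HIF for destruction, was higher by 2.04 ± 0.10. Epas1, which encodes HIF2alpha, was the member called lower, at 225, 432, 329 and 309 in tumours against 491 and 519 in cultures (-0.68 ± 0.20, limma adjusted p = 0.0122). Its call was lost without culture 1 and culture 2 (limma adjusted p = 0.0514 and 0.0801) and without the intensity trend (0.0583). Ndrg1, a much used hypoxia marker, was at 1061, 1118, 1133 and 1666 in tumours against 1114 and 1138 in cultures, with overlapping groups (adjusted p = 0.528), and Pfkfb4 was at 44.3, 79.7, 69.8 and 76.4 against 83.4 and 103 (adjusted p = 0.127). Among the others called higher, Hilpda, P4ha1, Plod2, Higd1a, Ddit4 and Bnip3l ranged between 1.35 and 2.65 (log2). Car12, Angptl4, Lox and Loxl2 were listed in the tumour table only, where Angptl4 varied most, at 151, 20.2, 66.8 and 78.2.

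Glycolysis was higher at almost every step, with 21 of 22 tested genes called higher, none lower and a median change of 1.26. The glucose transporter gene Slc2a1 was at 5052, 5907, 6036 and 6659 in tumours against 759 and 737 in cultures, 7.86-fold higher (2.97 ± 0.10, limma adjusted p = 1.24e-09). The aldolase isoform gene Aldoc was at 5063, 4915, 4845 and 4958 in tumours against 395 and 457 in cultures, 11.6-fold higher (3.54 ± 0.08). Tumour values of Aldoc lie within a narrow band, well apart from both cultures. Pdk1, which turns pyruvate away from the mitochondria, was at 2687, 2741, 2620 and 2793 against 486 and 498 (2.46 ± 0.07). Among isoforms the changes were unequal: Pfkl and Pfkp were higher by 2.07 and 1.73, while Pfkm was at 1782, 1836, 1466 and 1654 in tumours against 1707 and 1850 in cultures (-0.08 ± 0.10, adjusted p = 0.499). Hk2 was higher by 2.01 and Hk1 by 0.49. Ldha, which makes lactate, was higher by 0.58 ± 0.12 (limma adjusted p = 0.00196), a smaller change than that of Ldhb at 1.22 ± 0.08.

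The promoters of these genes were searched for the core of the hypoxia response element, ACGTG, on both strands. RefSeq promoters (build GRCm38.p6, 250 bases before to 50 after each start) could be matched by symbol for 9291 of the tested genes. The core was present in 12 of 18 hypoxia promoters (66.7%) and 10 of 21 glycolysis promoters (47.6%), beside 26.6% of all tested genes with a promoter, 29.9% of those called higher and 24.1% of those called lower. Windows of 100 bases from 4 of the promoters that hold the core are given 5′ to 3′, with the core or its complement in capitals. Where CACGTG is in capitals, the core overlaps its own complement.
Car9, chr4:43506926-43507025, plus strand: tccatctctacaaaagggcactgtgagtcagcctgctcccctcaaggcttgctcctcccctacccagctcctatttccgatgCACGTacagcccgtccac
Bnip3, chr7:138909589-138909688, minus strand: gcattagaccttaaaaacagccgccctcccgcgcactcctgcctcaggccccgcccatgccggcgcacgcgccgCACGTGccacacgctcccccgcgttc
Ero1a, chr14:45318611-45318710, minus strand: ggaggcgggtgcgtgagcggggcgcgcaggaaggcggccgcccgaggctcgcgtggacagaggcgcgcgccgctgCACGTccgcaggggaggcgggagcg
Pgk1, chrX:106186894-106186993, plus strand: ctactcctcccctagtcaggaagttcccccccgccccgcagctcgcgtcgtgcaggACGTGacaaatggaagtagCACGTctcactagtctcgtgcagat
Car9 holds the core close to its start, within the last 100 bases before it, and the Pgk1 window holds it at 2 places on opposite strands. A match of letters is a description of the sequence and not evidence of binding; Pgk1, a glycolytic kinase gene, was higher by 1.06 ± 0.11 and Car9 by 6.14, with the core in both promoters.

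**Figure D1:**
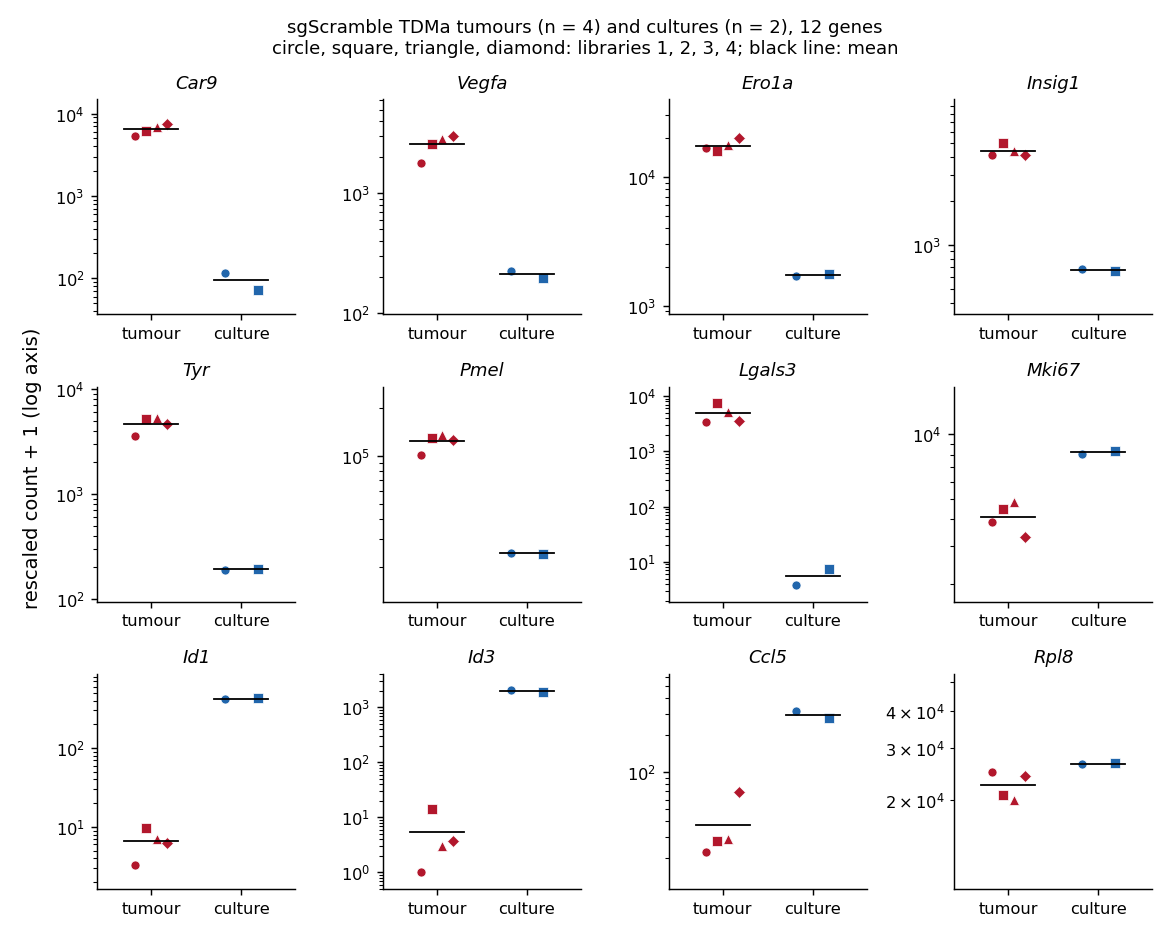
Rescaled counts plus 1 on a log axis in each library for 12 genes named in the text, with the 4 tumours in red on the left of each panel, the 2 cultures in blue on the right, marker shape for the library number and a black line for the group mean. Car9, Vegfa, Ero1a, Insig1, Tyr and Lgals3 lie higher in every tumour than in either culture, Mki67, Id1, Id3 and Ccl5 lie lower, and Rpl8 was not called.

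Cholesterol synthesis was higher as a whole: all 23 tested genes, regulators included, were called higher in tumours, with a median change of 1.74. Insig1 (ENSMUSG00000045294), the sterol-sensing anchor of the SREBP complex and itself a target of SREBP2, was at 4115, 4996, 4431 and 4134 in tumours against 686 and 662 in cultures, 6.53-fold higher (2.71 ± 0.09, limma adjusted p = 1.14e-09). Msmo1, a demethylase of the late sterol steps, was at 5353, 5028, 4922 and 4638 against 932 and 930 (2.42 ± 0.08). Sqle, squalene epoxidase, was at 11866, 10974, 10308 and 10953 against 2402 and 2480 (2.17 ± 0.08). These tumour values vary little beside the distance to the cultures. Early steps moved with late ones: Hmgcs1, an early synthase, was at 2348, 2389, 2359 and 2412 in tumours against 546 and 593 in cultures (2.06). Srebf2, which encodes SREBP2, was higher by 1.05, and the smallest change of the group was that of Ebp at 0.71. Fdps had few counts, at 51.2, 71.1, 61.8 and 50.6 in tumours against 10.3 and 2.79 in cultures, and shares sequence with near-identical copies, so its change of 3.17 is uncertain.

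Fatty acid genes followed at a smaller scale, with 11 of 15 tested genes higher, none lower and a median of 0.66. Desaturases and acyl-CoA ligases changed most: Acsl3 was at 2371, 3075, 2942 and 2333 in tumours against 936 and 954 in cultures (1.49 ± 0.11, limma adjusted p = 8.79e-07), and Fads1 at 4393, 5214, 5259 and 4122 against 1879 and 2010 (1.28 ± 0.11). The synthase gene did not pass the test. Fasn, fatty acid synthase, was at 6690, 6993, 6284 and 4648 in tumours against 4810 and 5004 in cultures (0.31, adjusted p = 0.0773), with tumour 4 below both cultures and the other tumours above them, and it was called higher without tumour 4 (limma adjusted p = 0.000713). The acetyl-CoA carboxylase gene Acaca was not called either.

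Pigment genes were higher in tumours as well, while the lineage factor Sox10 did not pass the test. Of 19 tested melanocyte genes, 16 were higher and none was lower, with a median change of 0.93. Tyr (ENSMUSG00000004651), tyrosinase, the rate-limiting enzyme of melanin synthesis, changed most, at 3562, 5192, 5287 and 4702 in tumours against 186 and 193 in cultures, 24.3-fold higher (4.60 ± 0.14, limma adjusted p = 5.47e-10). Pmel, the fibril protein of pigment granules, was at 100630, 129703, 135095 and 125785 against 24369 and 24210, 5.02-fold higher (2.33 ± 0.15). Tumour 1 held least of both, still far above the cultures. Dct, dopachrome tautomerase, was at 424507, 468755, 467078 and 456660 in tumours against 99104 and 97495 in cultures (2.21 ± 0.20). The transporter Oca2, the channel Trpm1 and the transport GTPase Rab27a were higher by 2.52, 2.36 and 2.33, and Tyrp1 and Mlana by 0.74 and 0.62. Mitf, the lineage's master factor, was at 5960, 6601, 6996 and 6112 against 4330 and 4173 (0.59 ± 0.09, limma adjusted p = 0.000128). Sox10 was at 7965, 8040, 7528 and 7162 in tumours against 7429 and 7596 in cultures, with a 95% interval of -0.15 to 0.21 (log2). Mc1r and Tfap2a did not pass the test either, at 0.15 and 0.11. Kit, the receptor of melanoblast growth, was listed in the tumour table only, at 158, 69.2, 111 and 68.4.

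Melanocyte promoters were searched for the M-box, CATGTG, the motif bound by MITF, on both strands. It was present in 7 of 12 (58.3%), beside 8.06% of all tested genes with a promoter, 9.02% of those called higher and 6.35% of those called lower. Windows of 100 bases from 3 genes show it in capitals, for the enzyme genes Tyr and Dct and the channel gene Trpm1, again from RefSeq in GRCm38.p6.
Tyr, chr7:87493513-87493612, minus strand: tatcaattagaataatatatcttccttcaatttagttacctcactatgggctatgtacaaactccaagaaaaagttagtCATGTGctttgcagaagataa
Dct, chr14:118052371-118052470, minus strand: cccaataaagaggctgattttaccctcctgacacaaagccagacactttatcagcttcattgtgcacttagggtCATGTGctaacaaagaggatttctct
Trpm1, chr7:64153620-64153719, plus strand: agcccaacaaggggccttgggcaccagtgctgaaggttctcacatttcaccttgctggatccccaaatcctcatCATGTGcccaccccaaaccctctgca
In Tyr the motif lies within the last 100 bases before the start, and in Dct and Trpm1 it lies further upstream. The same letters stand in promoters of genes whose changes were 4.60, 2.21 and 2.36.

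Lysosomal genes, which share the MITF and TFEB family of regulators with pigment granules, were higher for 22 of 23 tested members, none lower, with a median of 0.96. Cathepsin B (Ctsb) was at 16810, 17658, 20009 and 20293 in tumours against 6242 and 6231 in cultures (1.58 ± 0.10, limma adjusted p = 1.65e-07). Tfeb itself was at 664, 901, 790 and 893 against 244 and 261 (1.67 ± 0.13). Npc2, a cholesterol carrier of the lysosome, was higher by 1.27, and Ctsz, Ctsa and Ctsl by 1.19, 1.20 and 1.04. Changes were small for proton pump genes: Atp6v1a was higher by 0.43, and Atp6v1h was at 1126, 1115, 1010 and 1295 in tumours against 1265 and 1258 in cultures (-0.16, adjusted p = 0.201), and it was called lower without tumour 4 (limma adjusted p = 0.04). Macrophages are rich in cathepsins, and macrophage marker RNA was present in the tumours, as described below; its part in the lysosomal result was not tested.

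Secretory stress genes were moderately higher. Of 18 unfolded protein response genes 13 were higher and none lower, with a median of 0.56. Xbp1, a transcription factor of that response, was at 8324, 6896, 6889 and 6803 in tumours against 3542 and 3646 in cultures (1.00 ± 0.09, limma adjusted p = 4.55e-06), and the chaperone genes Hspa5 and Pdia6 were higher by 0.65 and 0.74. The stress sensor gene Ern1 was at 484, 486, 539 and 561 in tumours against 570 and 555 in cultures (adjusted p = 0.323). Targets of ATF4 in the integrated stress response went both ways, with 10 of 22 higher and 8 lower, beside 27.2% and 25.7% of all genes. The amino acid carrier gene Slc3a2 was at 5272, 5214, 5137 and 5608 in tumours against 1926 and 1936 in cultures (1.46 ± 0.07, limma adjusted p = 2.52e-08), its partner Slc7a5 was higher by 1.23, and the factors Trib3 and Ddit3 were higher by 2.16 and 1.71. Phgdh, the first enzyme of serine synthesis, was at 2628, 2219, 1930 and 2352 in tumours against 5155 and 5517 in cultures (-1.23 ± 0.11, limma adjusted p = 2.59e-06), and Psat1 and Shmt2 were lower too, at -1.22 and -0.65. Atf4 itself was at 4197, 5070, 4469 and 5989 against 3877 and 3789 (0.35, adjusted p = 0.0296), a call lost without tumour 2, culture 1 or culture 2 (limma adjusted p = 0.0627, 0.114 and 0.15). It was lost as well with equal sums, where the change was 0.20 (limma adjusted p = 0.168), with quantile normalisation (0.052) and without the intensity trend (0.103). The hormone gene Gdf15, another ATF4 target, was lower, at 423, 444, 367 and 703 in tumours against 1189 and 1231 in cultures (-1.37).

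Most cell cycle genes were lower in tumours. Of 22 tested S phase genes 19 were lower and none higher, and of 22 tested G2 and M phase genes 21 were lower and none higher, each with a median of -0.78. Mki67 (ENSMUSG00000031004), the proliferation marker Ki-67, was at 3885, 4453, 4812 and 3302 in tumours against 8106 and 8312 in cultures (-1.01 ± 0.13, limma adjusted p = 4.28e-05). Hmmr and Plk1, genes of the mitotic spindle and its kinase, were lower, at -1.37 and -1.27, as were Cenpe and Aurka at -1.18 and -1.10. Mcm4, a subunit of the replicative helicase, was at 1345, 1194, 1203 and 1154 in tumours against 2452 and 2456 in cultures (-1.01 ± 0.08). Helicase subunits moved together, with Mcm2, Mcm3, Mcm5, Mcm6 and Mcm7 between -0.90 and -0.76. Gins2, Ung, Fen1 and Bub1 did not pass the test, though Fen1 and Bub1 did without tumour 1 (limma adjusted p = 0.0435 and 0.00163). The maintenance methyltransferase Dnmt1 and its partner Uhrf1, both most active in S phase, were lower, at -0.72 and -0.70; among demethylases Tet2 was at 186, 366, 446 and 317 in tumours against 120 and 105 in cultures (1.47), with the lowest value in tumour 1.

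Ribosome assembly and ribosomal protein genes did not share that pattern equally. Of 21 nucleolar genes 16 were lower and 1 was higher, with a median of -0.37, and the lower count was 9 without culture 1 and 8 without culture 2. Nop2, Dkc1 and Nop58, which modify or assemble ribosomal RNA, were lower, at -0.86, -0.85 and -0.80. The 1 higher gene was Myc, at 1756, 1645, 1515 and 1764 in tumours against 1172 and 1190 in cultures (0.50 ± 0.08, limma adjusted p = 0.000428). Of 24 cytosolic ribosomal protein genes 1 was lower, Rps2 (-0.46, adjusted p = 0.0075, but 0.0766 and 0.0715 without culture 1 and culture 2), and none was higher, with a median of 0.00; with equal sums, 7 were lower and the median was -0.14, and with quantile normalisation 10 were lower. Targets of p53 were lower in 10 of 17 cases and higher in none, with a median of -0.45. Among them Mdm2, the ligase that restrains p53, was at 1619, 1637, 1638 and 1570 against 3080 and 3147 (-0.95 ± 0.07, limma adjusted p = 7.36e-07), Btg2 was at -1.70, and the cell cycle inhibitor gene Cdkn1a at -0.58.

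**Figure D2:**
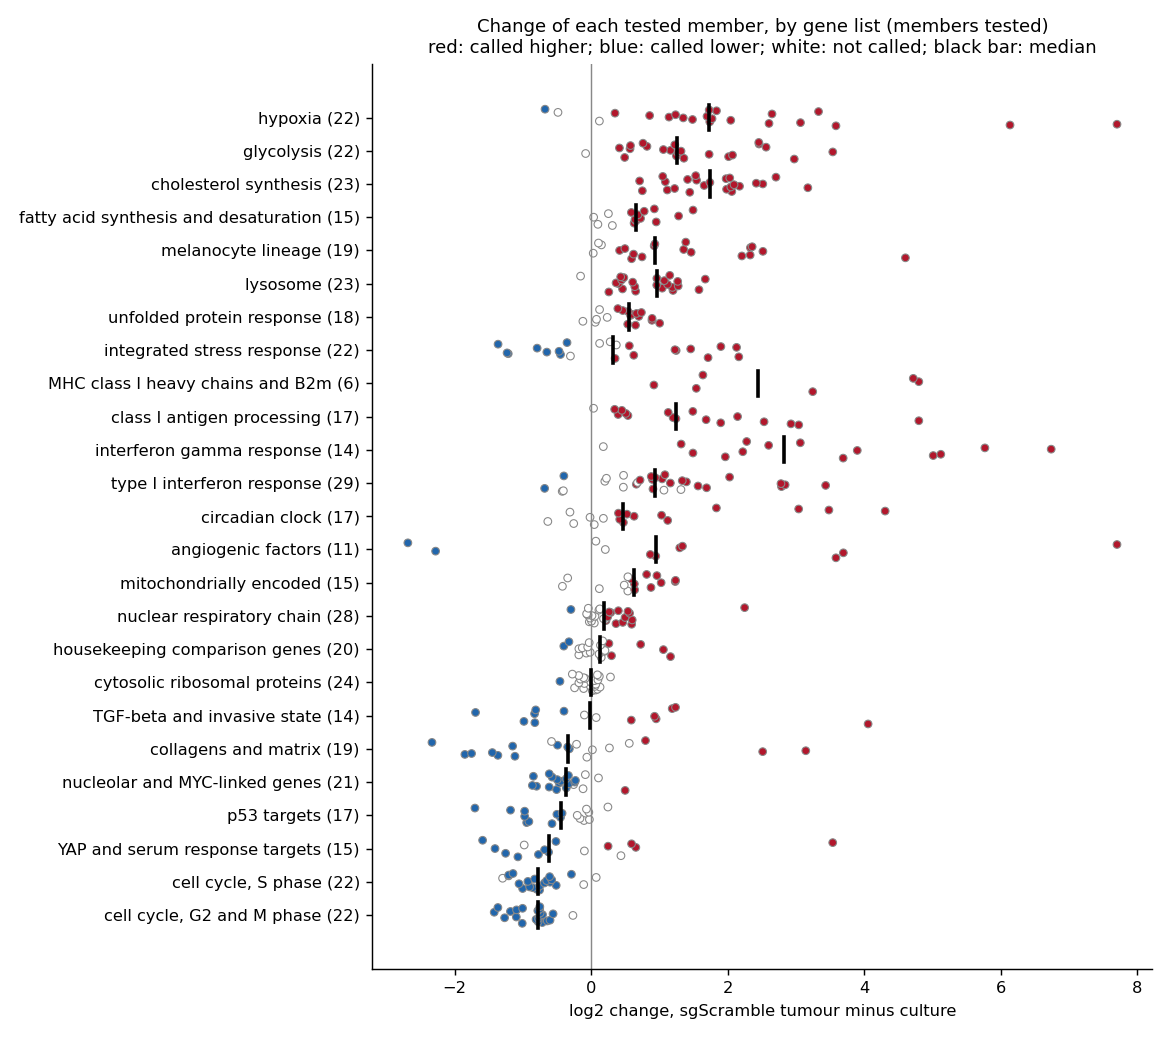
Log2 change, tumour minus culture, of every tested member of 25 gene lists, with red points called higher in tumours, blue points called lower, white points not called and a black bar for the list's median. The cholesterol list lies wholly on the higher side, the G2 and M phase list lies wholly on the lower side, and the integrated stress response and matrix lists spread to both sides.

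Antigen presentation was higher in tumours, and Nlrc5 (ENSMUSG00000074151), the gene the study targets in its other arm, was somewhat higher although neither group carried a guide against it. Nlrc5 was at 828, 258, 560 and 661 in tumours against 248 and 236 in cultures, with tumour 2 close to the cultures. Its change was 1.13 ± 0.33, or 2.19-fold (limma adjusted p = 0.0135), and the adjusted p was 0.0518 and 0.067 without culture 1 and culture 2 and 0.076 without the intensity trend, so the call does not hold under those settings; over all settings run it ranged between 2.33e-05 and 0.076. All 6 tested class I genes were higher, with a median of 2.44. H2-D1 (ENSMUSG00000073411), a classical class I heavy chain, was at 962, 916, 1399 and 1744 in tumours against 145 and 111 in cultures, 9.48-fold higher (3.25 ± 0.22, limma adjusted p = 3.49e-07). B2m, the light chain shared by class I molecules, was at 32386, 15401, 19716 and 24342 against 7614 and 6650 (1.64 ± 0.22). The non-classical H2-T22 and H2-T24 were higher by 1.54 and 0.92, and H2-T10 and H2-M3, with under 20 rescaled counts in each culture, by 4.80 and 4.72; H2-T24 lost its call without tumour 3, tumour 4, culture 1 or culture 2 (limma adjusted p = 0.0767, 0.068, 0.173 and 0.0834), and also with equal sums, quantile normalisation, no intensity trend and voom (0.0612, 0.0822, 0.0862 and 0.0627). H2-K1, also classical, was listed in the tumour table only, at 645, 559, 686 and 1187. Genes of the H2 family are near-identical in places, so counts may be shared between them.

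Peptide loading genes followed, with 16 of 17 tested processing genes higher, none lower, and a median of 1.24. Tap1, a subunit of the peptide transporter, was at 2887, 1131, 2099 and 3007 in tumours against 263 and 253 in cultures, 8.23-fold higher (3.04 ± 0.30, limma adjusted p = 5.85e-06). Psmb9, a subunit of the immunoproteasome, was at 1639, 490, 782 and 1654 against 43.1 and 28.8 (4.80 ± 0.40), and Psmb8, its neighbour, was listed in the tumour table only, at 986, 225, 513 and 358. Tumour 2 held least Tap1, Psmb9 and Psmb8 of the 4, yet more Tap1 and Psmb9 than either culture. Tap2 and the trimming peptidase gene Erap1 were higher by 2.93 and 2.14, the chaperone genes Calr, Pdia3 and Canx by 0.54, 0.51 and 0.39; the call of Canx was lost without culture 1 or culture 2 (limma adjusted p = 0.0655 and 0.0844), and with equal sums and quantile normalisation, where its change was 0.25 and 0.19 (limma adjusted p = 0.0564 and 0.0975). Irf1, an interferon-induced activator of these genes, was at 975, 606, 1104 and 2092 in tumours against 384 and 385 in cultures (1.49 ± 0.33, limma adjusted p = 0.00272). Rfxank, a subunit of the RFX complex through which NLRC5 acts, was at 159, 171, 191 and 157 against 169 and 162 and was the member not called.

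Genes induced mainly by interferon gamma were higher in nearly every case, with 13 of 14 tested higher, none lower, and a median of 2.83. Iigp1 (ENSMUSG00000054072), an immunity-related GTPase, was at 2378, 455, 1911 and 3976 in tumours against 23.4 and 9.3 in cultures (6.74 ± 0.64, limma adjusted p = 4.66e-06). Tgtp2, of the same family, was at 1805, 467, 1337 and 3174 against 23.4 and 25.1 (5.77 ± 0.52), and shares reads with its near-identical copy Tgtp1, listed in the tumour table only at 1855, 379, 1543 and 4096. Gbp2, a guanylate-binding protein gene, was at 1730, 431, 1522 and 4926 against 134 and 104 (3.69 ± 0.64). In all of these tumour 2 held least and tumour 4 most, a spread of several-fold within the group. Cd274, which encodes PD-L1, was at 250, 250, 409 and 726 in tumours against 51.5 and 36.3 in cultures (3.06 ± 0.36). The exception was Cxcl10, a chemokine that draws T cells, at 600, 278, 458 and 499 in tumours against 372 and 410 in cultures, with overlapping groups (0.18 ± 0.23, adjusted p = 0.539), although it was called higher without tumour 2 (limma adjusted p = 0.0268).

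Type I interferon genes were mixed: of 29 tested, 18 were higher and 2 lower, with a median of 0.94. The antiviral synthetase genes stood at the high end. Oas1g was at 168, 134, 157 and 186 in tumours against 25.3 and 7.44 in cultures (3.43 ± 0.36, limma adjusted p = 1.01e-05), and Oas2, Oasl2 and Xaf1 were higher by 2.84, 2.78 and 2.03. Ddx58, the RNA sensor RIG-I, was one of the lower pair, at 612, 564, 695 and 917 in tumours against 1231 and 982 in cultures (-0.68 ± 0.17, limma adjusted p = 0.00471), and Eif2ak2, the kinase PKR, was the other (-0.40, adjusted p = 0.00418). Both calls were lost without culture 1 (limma adjusted p = 0.076 and 0.103). Widely used markers did not pass: Isg15 was at 321, 254, 340 and 902 against 348 and 236 (adjusted p = 0.321), Ifit1 at 200, 81.6, 194 and 398 against 245 and 263 (adjusted p = 0.423), and Usp18 at 185, 118, 231 and 298 against 208 and 141 (adjusted p = 0.591). For Ifit1 the cultures lay above 3 of the tumours and below tumour 4. Without tumour 2, the library with the lowest interferon values, 22 members were higher and 2 lower.

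**Figure D3:**
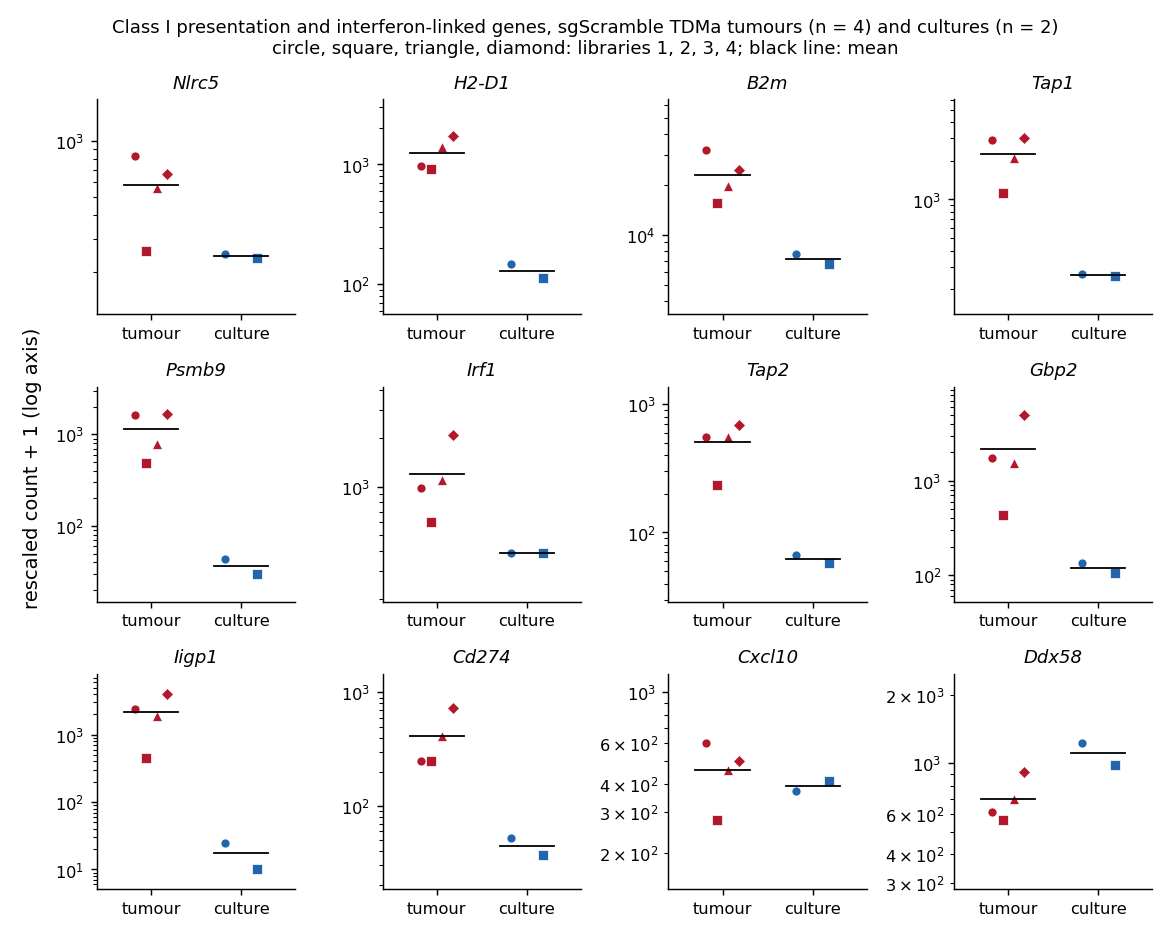
Rescaled counts plus 1 on a log axis for 12 antigen presentation and interferon genes, with the 4 tumours in red on the left of each panel, the 2 cultures in blue on the right, marker shape for the library number and a black line for the mean. Tumour 2 is the lowest tumour for Nlrc5, Tap1, Psmb9, Gbp2 and Iigp1, Cxcl10 overlaps between the groups and Ddx58 lies lower in tumours.

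Promoters of the interferon gamma and type I lists were searched for the interferon-stimulated response element on both strands. It was present in 9 of 11 interferon gamma promoters (81.8%) and 12 of 21 type I promoters (57.1%), beside 2.87% of all tested genes with a promoter, 4.16% of those called higher and 2.71% of those called lower. Windows of 100 bases from 3 genes follow, from Gbp2 and Tgtp2, which were higher, and from Cxcl10, which was not called, with the element or its complement in capitals (RefSeq, GRCm38.p6).
Gbp2, chr3:142620534-142620633, plus strand: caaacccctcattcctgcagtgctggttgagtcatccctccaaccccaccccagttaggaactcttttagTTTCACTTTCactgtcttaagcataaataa
Tgtp2, chr11:49064253-49064352, minus strand: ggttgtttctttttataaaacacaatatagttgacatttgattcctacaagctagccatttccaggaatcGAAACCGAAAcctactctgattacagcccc
Cxcl10, chr5:92349040-92349139, minus strand: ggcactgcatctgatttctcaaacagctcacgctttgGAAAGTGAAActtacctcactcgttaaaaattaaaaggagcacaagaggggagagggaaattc
All 3 windows were taken from promoters that hold the element, and the changes were 3.69 for Gbp2, 5.77 for Tgtp2 and 0.18 for Cxcl10.

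Host immune RNA was present in the same tumours and differed between them. Of 22 macrophage markers, 18 were listed in the tumour table only, with summed rescaled counts of 3601, 2586, 2977 and 5328 in tumours 1 to 4. C1qa, C1qb and C1qc, complement genes typical of tissue macrophages, were at 655, 340, 408 and 728, at 651, 495, 454 and 846, and at 593, 360, 374 and 576. Tumour 2 held least C1qa and C1qc and the lowest summed macrophage signal, and tumour 4 the highest sum. The summed interferon lists had the same order at both ends, at 19032, 6135, 16997 and 36793 for the interferon gamma genes listed in both tables. Single genes did not all follow: Nlrc5, B2m and Cxcl10 were highest in tumour 1. T cell markers were all listed in the tumour table only, 19 of 19, and were sparse, summing to 172, 178, 285 and 233, with Lck at 42.1, 52.8, 76.8 and 59.5. Of 14 NK and cytotoxic markers 11 were listed there, summing to 134, 96.1, 281 and 378, with granzyme B (Gzmb) at 28.4, 22.1, 70.8 and 130. Ifng, which encodes interferon gamma, was at 0, 1.92, 5.98 and 14.2. The tumour table also covered the 4 Nlrc5-guide tumours, so a marker could be listed through those. In scramble tumours the means of the T cell markers ran from 1.93 to 57.8, with a median of 6.61. Those of the NK and cytotoxic markers ran from 2.43 to 62.7, with a median of 12.2. MHC class II genes, borne mainly by antigen-presenting cells but inducible by interferon gamma in other cells, summed to 9317, 2900, 5910 and 11221 over the 9 listed in the tumour table only, with Cd74 at 3270, 731, 1729 and 3598, and their activator gene Ciita was at 98.9, 18.2, 56.8 and 147. The macrophage, NK and class II sums were, like the interferon sums, lowest in tumour 2 and highest in tumour 4, while the T cell sum was lowest in tumour 1 and highest in tumour 3. Their part in the antigen presentation and interferon results was not tested.

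Chemokine and NF-kB genes went different ways. Among 9 tested NF-kB targets and chemokines, 2 were higher and 4 lower, beside 27.2% and 25.7% of all genes tested. Ccl5 (ENSMUSG00000035042), a T cell chemokine, was the most lowered immune gene of the list, at 21.6, 26.9, 27.9 and 68.4 in tumours against 314 and 273 in cultures (-3.13 ± 0.37, limma adjusted p = 2.64e-05). Csf1, the macrophage growth factor, was at 250, 163, 232 and 285 against 769 and 811 (-1.79 ± 0.18). Both were lower in every tumour than in either culture. In 1 direction or the other, the groups did not overlap for 66.6% of all genes tested. Tnfaip2 and Tnfaip3, induced by TNF, were higher by 3.72 and 2.45, while Nfkb1 was lower, at -0.56. Ccl2, Ccl7 and Ccl8, chemokines for monocytes, were listed in the tumour table only, at 181, 158, 182 and 417, at 133, 117, 134 and 400, and at 225, 129, 106 and 503, highest in tumour 4 each time. Complement genes were higher in 5 of 6 tested cases, with C3 at 329, 265, 305 and 462 in tumours against 15 and 12.1 in cultures (4.53 ± 0.22, limma adjusted p = 1.79e-08) and C2 and C4b higher by 5.52 and 4.74. Of the checkpoint genes tested, Cd47 and Cd276 were higher by 1.35 and 1.01 along with Cd274, and Havcr2 and Sirpa were lower, at -1.46 and -0.36.

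Matrix and adhesion genes were lower more often than higher: 10 of 19 collagen and matrix genes were lower and 3 higher, with a median of -0.34, and 5 were lower without culture 1. The basement membrane collagen Col4a2 was at 2244, 1766, 1739 and 1696 in tumours against 6598 and 6754 in cultures (-1.85 ± 0.11, limma adjusted p = 8.01e-08), and Col4a1, Col5a1 and Postn were lower, at -1.37, -1.75 and -2.33. Col18a1, whose end fragment is endostatin, went the other way, at 285, 104, 164 and 98.6 against 15.9 and 15.8 (3.14 ± 0.36). Targets of YAP and serum response factor were lower in 8 of 15 cases and higher in 4, with a median of -0.62. Tpm1, an actin cable protein, was at 4886, 4224, 4096 and 5241 in tumours against 13670 and 13992 in cultures (-1.59 ± 0.10), and Ajuba and the matricellular gene Ccn1 were lower, at -1.25 and -1.07. Myl9, a myosin light chain, was the largest exception, at 892, 820, 678 and 1198 against 76.8 and 72.5 (3.54 ± 0.18). In the invasive state list Tgfb1 was at 118, 110, 157 and 183 in tumours against 8.43 and 6.51 in cultures (4.06 ± 0.26), while Tgfb2, Zeb2, Snai2 and Cdh2 were lower, at -0.83, -0.83, -1.70 and -0.81. Fibroblast markers listed in the tumour table only summed to 188, 445, 351 and 285, and pericyte markers to 25.0, 235, 24.9 and 10.7. These sums were highest in tumour 2, and their part in the matrix values was not tested. The 6 pericyte and smooth muscle markers listed in both tables summed to 2063, 1810, 1877 and 1751 in tumours against 6585 and 6903 in cultures. Of the 5 tested, 2 were lower and 0 higher, and of 7 tested fibroblast markers 3 were lower and 1 higher. Among all genes tested, 25.7% were lower and 27.2% higher.

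Of 11 tested vessel-forming factor genes, 7 were higher and 2 lower. Pgf, placental growth factor, was at 357, 327, 422 and 375 in tumours against 28.1 and 27 in cultures (3.69 ± 0.15, limma adjusted p = 5.51e-09), in parallel with Vegfa, and Vegfb and Vegfc were higher by 0.95 and 0.87. Angpt2, an antagonist of the Tie2 receptor on vessels, was lower, at 508, 488, 510 and 423 in tumours against 2405 and 2278 in cultures (-2.28 ± 0.10). Kitl, the ligand of Kit, was at 15.9, 35.5, 9.97 and 8.88 against 108 and 97.7 (-2.69 ± 0.46). Vwf, the clotting factor usually used as an endothelial marker, was at 3913, 4655, 5071 and 4426 in tumours against 497 and 541 in cultures, where host vessels are absent (3.11 ± 0.10, limma adjusted p = 8.85e-10). Tested endothelial markers went both ways: of 5, Vwf among them, 2 were higher and 2 lower, with changes from -1.50 to 3.11. Of all genes tested, 27.2% were higher and 25.7% lower. The endothelial markers Pecam1, Cdh5 and Kdr were listed in the tumour table only, with Pecam1 at 25, 76.8, 39.9 and 32.9. Vwf was highest in tumour 3 and Pecam1 in tumour 2, and which cells the Vwf RNA came from was not tested.

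Clock genes were higher for 11 of 17 tested members and lower for none. The repressor genes Bhlhe40 and Bhlhe41, which are also hypoxia targets, were among the most changed: Bhlhe40 was at 3876, 4596, 4729 and 5267 in tumours against 368 and 456 in cultures (3.48 ± 0.12, limma adjusted p = 1.47e-09), and Bhlhe41 was higher by 3.04. The core activators Arntl and Clock did not pass the test, at 0.04 and -0.26, though Clock did, as lower, without tumour 2 (limma adjusted p = 0.0227). Mitochondrially encoded genes were higher in 9 of 15 cases and lower in none, but in 4 without either culture. Among them mt-Co1 was at 174229, 219491, 309990 and 267560 in tumours against 117318 and 116038 in cultures (1.02 ± 0.23, adjusted p = 0.00313), with most in tumour 3, and its call was lost with quantile normalisation.

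Some of the largest single changes lay outside these groups. Lgals3 (ENSMUSG00000050335), galectin 3, was at 3348, 7404, 5143 and 3594 in tumours against 2.81 and 6.51 in cultures (9.76 ± 0.30, limma adjusted p = 7.31e-10), the largest positive change of all genes tested. Macrophages also make galectin 3; Lgals3 was highest in tumour 2 and the macrophage marker sum in tumour 4, and the part of macrophage RNA in this result was not tested. Mcoln3, a lysosomal channel, was at 839, 1700, 1786 and 1264 in tumours against 8.43 and 8.37 in cultures (7.16 ± 0.25). Trf, transferrin, the iron carrier, was at 2271, 2413, 2772 and 2293 against 45 and 49.3 (5.66 ± 0.10, limma adjusted p = 2.46e-11). All 3 were near silent in both cultures beside their tumour levels. Aire, known for displaying self antigens in the thymus, was at 842, 759, 926 and 629 in tumours against 0 and 4.65 in cultures, and Rcn3, a calcium-binding protein of the secretory pathway, at 621, 542, 732 and 703 against 3.75 and 0; the culture values rest on 5 reads or fewer. Mfsd13a was at 185, 303, 355 and 240 in tumours against 0 and 0.93 in cultures, where 1 read was seen, a ratio of 584 with a 95% counting interval of 105 to 23087. Tmem144, at 175, 93.2, 149 and 126 against 1.87 and 0.93, rested on 3 culture reads, a ratio of 95.6 with an interval of 32.5 to 465. Wfikkn2, a protease inhibitor domain gene that binds growth factors of the TGF-beta family, was at 909, 868, 895 and 703 against 13.1 and 5.58 (6.45 ± 0.25), Prxl2a at 405, 572, 630 and 528 against 3.75 and 4.65 (6.67 ± 0.20), and the protease gene Adam8 and the glutathione transferase gene Gstp2 were higher by 5.66 and 5.62.

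Among lowered genes were inhibitors of differentiation. Id3 (ENSMUSG00000007872) was at 0, 13.4, 1.99 and 2.66 in tumours against 2034 and 1881 in cultures (-9.11 ± 0.75, limma adjusted p = 1.5e-06), and Id1 (ENSMUSG00000042745) at 2.27, 8.64, 5.98 and 5.33 against 413 and 434 (-6.12 ± 0.41, limma adjusted p = 2.7e-07). Both encode proteins that block helix-loop-helix factors and are known as direct targets of BMP signalling. Tumour levels were near the floor of the counts in every tumour, with the highest values in tumour 2. Prkg2, a cyclic GMP-dependent kinase, was at 31.8, 9.61, 4.98 and 18.7 in tumours against 1230 and 1201 in cultures (-6.42). Adh7, an alcohol dehydrogenase, was at 15.9, 14.4, 1.99 and 13.3 against 756 and 746 (-6.19), and Masp1, a protease of the lectin complement pathway, at 124, 135, 105 and 158 against 3007 and 3053 (-4.54, limma adjusted p = 8.85e-10). Rgs16, a regulator of G protein signalling, was at 39.8, 29.8, 28.9 and 25.8 against 760 and 828 (-4.65). Nnmt, Casq2, Hsd11b1, Ccn4, Glis3, Duox1, Dpysl3, Rab30 and Btbd16 had changes between -5.57 and -4.22. These genes were named by a rule that required groups without overlap. Mbp, the myelin protein gene that melanoma cells share with Schwann cells, was at 5493, 4088, 4529 and 4546 in tumours against 24763 and 24189 in cultures (-2.40), and the imprinted gene Peg10 at 1137, 1136, 1217 and 1157 against 5592 and 5691 (-2.28).

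At the other end, some genes held their level to within a few percent. Slc38a10, an amino acid carrier, was at 4048, 4096, 4094 and 4077 in tumours against 4005 and 4174 in cultures, and Rab14, Tra2a, Arih1, Hp1bp3 and Rbm17 also had changes between -0.01 and 0.00. Usual reference genes were not all of this kind: Actb was at 0.15 (log2, adjusted p = 0.334), while Gapdh and Pgk1, both glycolytic, were higher by 1.16 and 1.06. The tumours varied most among themselves in Xist, Igfbp3, Fbln5 and interferon genes. Igfbp3, a binding protein of insulin-like growth factors, was at 26.1, 423, 64.8 and 32.9, highest in tumour 2 along with endothelial markers, which summed to 55.7, 294, 103 and 66.6 there and in its fellows. Gbp4, Gbp8, Gbp10, Gbp2, Apol6, Zbp1 and Tgtp1 made up the rest of the most variable genes, of which Gbp4 was at 558, 151, 755 and 2129.

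The 2059 genes listed in the tumour table only, of 14933 in that table, are candidates for RNA of host cells. A gene could be missing from the culture table simply because too few culture reads met its listing limit. It could also be listed in the tumour table through reads of the Nlrc5-guide tumours, so no fold or test is given. Together the 2059 genes took 0.36% to 0.676% of the reads of the scramble tumours. Of them, 876 had a mean of at least 10 and 137 a mean of at least 100. By rescaled count, which is not per length, class II genes, interferon GTPases, macrophage genes and haemoglobin were among the leading names. Hbb-bs, a beta globin gene and a sign of blood, was at 607, 600, 449 and 2060, and markers of red cells and platelets summed to 1146, 1155, 834 and 3562. By list sums, tumour 4 thus held most blood RNA as well as most macrophage and interferon RNA. Ctss, a protease of antigen-presenting cells, was at 967, 994, 977 and 1836, and the macrophage chemokine gene Ccl6 at 606, 824, 713 and 1370. Arg1, arginase, found in suppressive macrophages, was at 255, 339, 293 and 695. The dendritic cell, B cell and neutrophil markers of this set were low, with sums of 119 to 183, 31.7 to 59.8 and 38.7 to 109. No mast cell marker was listed in the tumour table only. The 2 dendritic cell markers listed in both tables, Batf3 and Zbtb46, were called lower. They summed to 191, 166, 158 and 192 in tumours against 341 and 370 in cultures. The fibroblast gene Dcn was at 45.5, 117, 157 and 129.

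Not every gene of that set belongs to a marker list of a host cell type. Gsta4, a glutathione transferase widely expressed in many tissues, was at 1146, 1108, 1304 and 887, Hsd17b11, an enzyme of lipid droplets, at 331, 619, 1111 and 561, and Tnfrsf9, the co-stimulatory receptor 4-1BB, at 691, 814, 1073 and 1104. Gsta4 was lowest in tumour 4, where the macrophage sum was highest, and Hsd17b11 was highest in tumour 3. Which cells these RNAs came from was not tested. Conversely, 410 genes were listed in the culture table only, 12 of them with a mean of at least 100. Atoh8, a helix-loop-helix factor, was at 923 and 1031 in the cultures, the channel gene Pkd2l1 at 558 and 509, Cfap70 at 549 and 493, the guanylate cyclase gene Gucy1a1 at 140 and 145, the cytokine gene Tslp at 115 and 140 and Plekhh2 at 132 and 114.

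**Figure D4:**
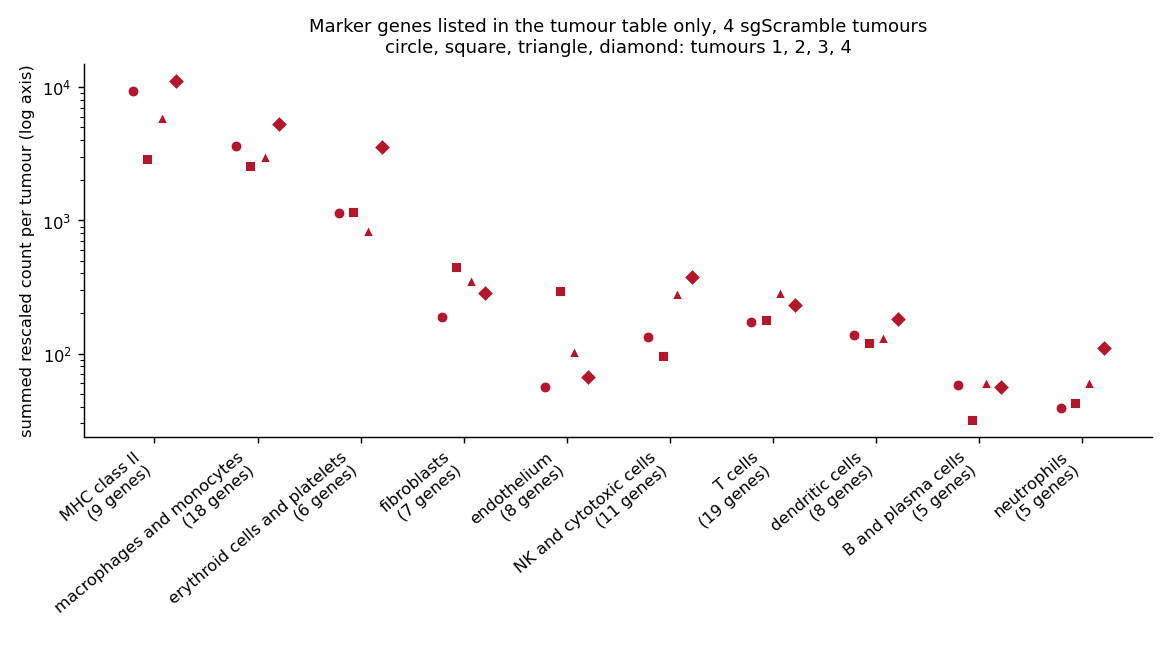
Summed rescaled counts in each of the 4 scramble tumours of marker genes listed in the tumour table only, for 10 cell types or gene groups. The sums cover different numbers of genes; those of class II, macrophage and red cell markers are highest in tumour 4, while endothelial markers are highest in tumour 2 at 294.

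The same comparison for cells with the Nlrc5 guide (4 tumours and 2 cultures, none shared with the scramble libraries) gave values to set beside these. There, 3625 of 12264 genes (29.6%) were higher and 3613 (29.5%) lower. Of the scramble calls that were also tested there, 4714 of 6416 were called in the same direction and 192 in the opposite one. The difference between the changes, scramble minus Nlrc5 guide, passed the test for 4282 of 12273 genes (34.9%; limma interaction with weights per group), 2269 with a higher and 2013 with a lower change in the scramble cells; without the weights 2747 passed. Metabolic groups changed more in scramble cells: the median of the hypoxia list was 1.73 in scramble cells and 1.18 in Nlrc5-guide cells, with 12 members larger in scramble and none smaller, and that of cholesterol synthesis 1.74 and 1.02, with 16 larger and 2 smaller. Vegfa differed by 0.76 (limma adjusted p = 0.0247). For cell cycle genes the difference passed for 9 of 22 S phase genes, 8 with a higher and 1 with a lower change in scramble cells, and for 9 of 22 G2 and M phase genes, all with a higher change, shares near that of all genes. Mki67 was at -1.01 in scramble cells and -2.56 in Nlrc5-guide cells (difference 1.54, limma adjusted p = 0.000203). For ribosomal protein genes the medians were 0.00 and -0.50, with 18 of 24 members higher in the scramble change and none lower.

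Interferon groups changed less in scramble cells. The median of the interferon gamma list was 2.83 in scramble cells and 6.39 in Nlrc5-guide cells, with 13 members smaller in scramble and none larger, and that of the type I list 0.94 and 3.50, with all 29 smaller. Cxcl10 changed by 0.18 in scramble cells and 3.50 in Nlrc5-guide cells (difference -3.33, limma adjusted p = 3.98e-07). Ccl5 was -3.13 and 1.55 (difference -4.68, limma adjusted p = 7.54e-07), and Ddx58 -0.68 and 2.21 (difference -2.90, limma adjusted p = 6.25e-08), so both went down with the scramble guide and up with the other. In antigen presentation the difference passed for 3 of 6 class I genes and for 10 of 17 processing genes, beside 34.9% of all genes. The 3 class I genes all had a smaller change in scramble cells (list medians 2.44 and 3.14). Of the 10 processing genes, 8 had a smaller and 2 a larger change in scramble cells (list medians 1.24 and 2.25). Among single genes the difference was 0.22 for H2-D1 (adjusted p = 0.522), -0.58 for B2m (adjusted p = 0.0768), -0.29 for Tap1 (adjusted p = 0.478) and 0.75 for Nlrc5 (adjusted p = 0.088), none of which passed. Pmel changed by 2.33 and 2.27 (difference 0.06, adjusted p = 0.861). Lysosomal genes changed less in scramble cells, with medians of 0.96 and 1.46 and 17 members smaller against 1 larger.

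**Figure D5:**
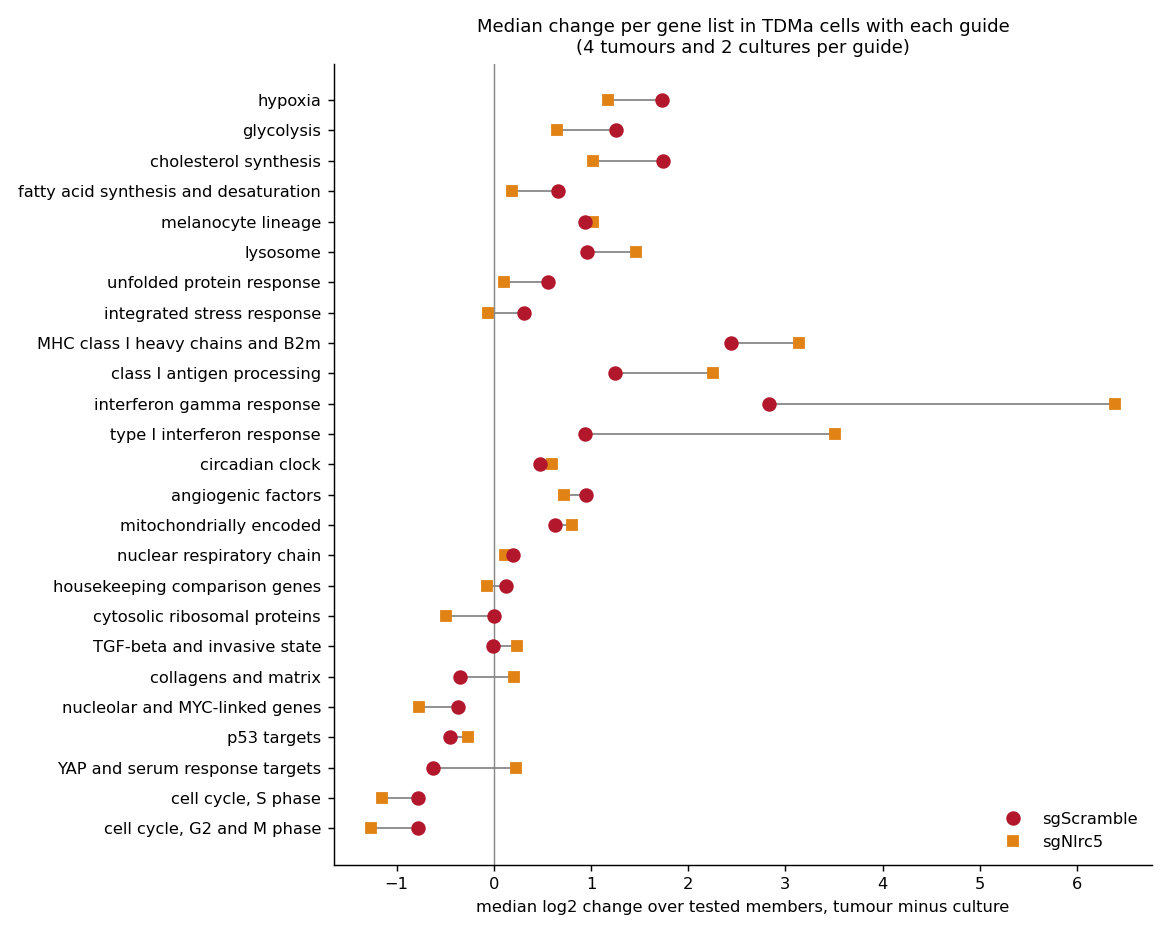
Median log2 change, tumour minus culture, of gene lists in scramble cells (red circles) and in cells with the Nlrc5 guide (orange squares). Interferon lists lie further left for the scramble guide, at 2.83 against 6.39 for the interferon gamma list, and hypoxia and cholesterol lists lie further right for the scramble guide.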

How the data were processed

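RNA was sequenced from TDMa tumours and cultures. The deposited values were log2 of the DESeq2-normalised count plus 1, per the file headers, with each table normalised alone by the authors. The submitters' processing notes name DESeq2 1.36.0, STAR 2.7.10a, FastQC 0.12.0, and as builds both mm39 and GRCm39. The counting tool, annotation and strand setting are not given in the sources used here; without a stated strand setting, overlapping and antisense genes cannot be told apart.

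Values were back-transformed (2 to the power of the value, minus 1), joined by identifier and rescaled over 12817 genes by the median of ratios. Whole reads were recovered from the steps of the values, with 100% within 0.1 of a whole read. Names came from the files; 15296 of 15343 identifiers also matched reference names. The lowest read sum listed was 40 over the 8 libraries of the tumour table and 20 over the 4 libraries of the culture table. Genes with a mean of the 2 group means of at least 10 were tested with limma 3.58.1 in R 4.3.3 on log2 of the rescaled count plus 1, with an intensity trend, two-sided, with Benjamini-Hochberg adjustment over all genes tested and a threshold of 0.05. These fold changes understate the change of low genes. Changes are given as log2, tumour minus culture, ± SE. The guide difference was fitted on 12 libraries with weights per group. The fit was tested on simulated data. Alternatives were other scalings, pseudocounts and filters, no trend, group weights, voom on the recovered reads, a replicate block and leaving out each library. Counting intervals are exact at 95% and cover counting error only.

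Promoters are RefSeq's in GRCm38.p6, another build than the authors', matched by symbol. The members and the gene lists were chosen with earlier results of these data known. Genes were named by level of change, p, mean, spread or stability within fixed limits, per list and over all genes; others were named for a known role after their values were seen. The remaining libraries, of TDM cells, were not used here.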

Additional observations from a re-analysis of the deposited data

Results flagged for a closer look

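Among 319 named genes, 21 had 1 scramble tumour far from the other 3 by Dixon's ratio, where chance flags about 5% of groups of 4. The count lies near that share. Some of the genes had been named for a large spread among these same tumours, so the flags are given as a description only. Tumour 4 was the high one for Lyz2 at 2428, Ctss at 1836, Ccl2 at 417, Ccl7 at 399.7 and Vsir at 111, genes of macrophages, monocyte chemokines and an immune checkpoint. It was also high for Itgax at 56.8 and Cdh2 at 1035 and low for Igf2r at 2807. Tumour 1 was high for Dkc1 at 1139, Nop56 at 3290, Xbp1 at 8324 and Col4a2 at 2244, and low for Notch3 at 181 and Xist at 3.41. Tumour 2 was high for Dpysl3 at 19.2, Pax5 at 6.72 and Cxcl12 at 4.803, all low counts. Tumour 3 was high for Thbs2 at 224 and S100a8 at 7.98 and low for Adh7 at 1.99 and Mylpf at 28.9.

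The change between tumours and cultures differed between scramble cells and Nlrc5-guide cells for 5 of the genes on which the difference was printed. The difference, scramble minus Nlrc5 guide, was -3.33 for Cxcl10 (limma adjusted p = 3.98e-07), -4.68 for Ccl5 (limma adjusted p = 7.54e-07) and -2.90 for Ddx58 (limma adjusted p = 6.25e-08). It was 1.54 for Mki67 (limma adjusted p = 0.000203) and 0.76 for Vegfa (limma adjusted p = 0.0247). The labels do not say whether the 2 sets of tumours were grown side by side.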

How the results depend on the processing

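Of 6455 genes called (3319 higher and 3136 lower in tumours), leaving out 1 library at a time gave 4371 to 6938 called, 2370 to 3541 higher and 1994 to 3397 lower. The lowest counts came without a culture, where 1 culture was left. Quantile normalisation gave 3001 higher and 3535 lower, equal sums 2554 and 4418, scaling on genes with a mean of at least 500 gave 3563 and 2868, voom on recovered reads called 6512 genes, and weights per group 7442. For the guide difference, 2747 genes passed without weights (1380 with a higher change in scramble cells) beside 4282 (2269) with them. Of the tested genes named here or by the rule, 247 kept their call under every setting run and 36 did not, and no sign was reversed among called values; of all gene and setting pairs 56 lost and 66 gained the call. Among the list counts 96 moved by more than 1.5 times, and among the list and all-gene medians 36 moved by more than the spread between tumours or by over 0.1. The cause was not tested.

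The labels do not say that replicate numbers pair tumours with cultures. Deviations of the same-numbered tumour and culture correlated at 0.040 and 0.097, with 2 pairs. With 2 cultures the deviations of one mirror those of the other, so these values cannot settle whether libraries were paired. No culture shares a number with tumours 3 and 4, so with the number as a replicate block the change rests on tumours 1 and 2. With that block 6106 genes were called, 3142 higher and 2964 lower, and the guide difference passed for 3928. The change of H2-T24 was 0.43 with the block (adjusted p = 0.21) beside 0.92. Genes seen with under 5 reads in the cultures have fold changes limited by depth.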

Other observations

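Several genes tied to BMP signalling, looked up after Id1 and Id3 had been seen among the lowest genes, had unequal values. Id2, of the same family, was at 767, 938, 955 and 1520 in tumours against 3468 and 3134 in cultures (-1.70, limma adjusted p = 2.42e-05). Smad6, an inhibitor of the pathway and one of its targets, was at 9.09, 17.3, 21.9 and 40 in tumours against 242 and 249 in cultures (-3.59, limma adjusted p = 2.96e-05), and Smad9 at 22.7, 21.1, 19.9 and 19.5 against 112 and 111 (-2.36). Each of these was lower in every tumour than in either culture, while the groups did not overlap for 66.6% of all genes tested. Bambi at -0.30, Smad7 at 0.07 and Hey1 at 1.42 did not pass the test (adjusted p = 0.0801, 0.774 and 0.0539). The receptor gene Acvrl1 went the other way, at 3099, 2952, 3116 and 3466 in tumours against 890 and 983 in cultures (1.75, limma adjusted p = 1.95e-08).

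Some genes that were near 0 in the scramble cultures were not near 0 in the cultures with the Nlrc5 guide, when all 12 libraries were put on 1 scale. Wfikkn2 was at 893, 854, 881 and 695 in scramble tumours against 12.9 and 5.49 in scramble cultures, and at 583, 689, 638 and 761 in Nlrc5-guide tumours against 189 and 190 in Nlrc5-guide cultures. Mfsd13a was at 182, 298, 349 and 237 in scramble tumours against 0 and 0.914 in scramble cultures, and at 197, 240, 135 and 137 in Nlrc5-guide tumours against 50.3 and 44.3 in Nlrc5-guide cultures. For both genes the tumours of the 2 guides lie closer together than the cultures do. On that scale Nlrc5 was at 812, 254, 552 and 653 in scramble tumours against 244 and 232 in scramble cultures, and at 4470, 3510, 3722 and 4295 in Nlrc5-guide tumours against 3061 and 3060 in Nlrc5-guide cultures. These genes were picked after their values were seen, and the values are given as a description.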
